A study of Mus musculus with 30 samples.

Results

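CDDO-Me (bardoxolone methyl) is a synthetic triterpenoid that reacts with cysteines of KEAP1, the adaptor protein that marks the transcription factor NRF2 for degradation. When KEAP1 is modified, NRF2 accumulates, pairs with a small MAF protein, and binds antioxidant response elements near genes for glutathione, thioredoxin, NADPH, and drug-metabolizing enzymes. The liver, which clears foreign compounds and makes most plasma proteins, carries these enzymes at high levels. The transcriptional response of wild-type mouse liver to 1 dose of CDDO-Me was examined here in 10 of the 30 RNA-seq libraries of the series, chosen by their genotype and treatment labels. They came from 5 vehicle-treated and 5 CDDO-Me-treated mice, numbered 1 to 5 in each group by their labels, with 1 library per liver. All were male, 7 to 10 weeks old, and wild-type for Keap1 and Nrf2. Their strain, B6(Cg)-Tyr c-2J/J, is an albino form of C57BL/6J, and they were bought from the Jackson Laboratory. CDDO-Me mice received 30 µmol/kg body weight by mouth, and vehicle mice received the carrier of DMSO, Cremophor-EL, and PBS. Livers were taken 24 h later. The comparison asks which transcripts of a liver with normal KEAP1 and NRF2 differ at that time. It was made within the wild-type genotype, so the part of NRF2 in any one difference was not tested.

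The libraries held 23667068 to 37321826 counts in genes, with group medians of 31065686 (vehicle) and 31062964 (CDDO-Me), and 15365 to 16314 genes had more than 3 counts. Levels are given as CPM, the counts of a gene scaled to a common library size after adjustment by the trimmed mean of M values. The hepatocyte marker Alb, which encodes albumin, had at least 1620771 counts in each library, and the 8 hepatocyte markers summed to 103712 to 121924 CPM in vehicle mice and 86902 to 107991 CPM in CDDO-Me mice, ranges that overlap. None of these 8 was called by edgeR or DESeq2, 2 had an unadjusted p under 0.05, 2 were called lower without CDDO-Me mouse 5, and 1 without CDDO-Me mouse 1 or vehicle mouse 1. Of 64 marker genes of hepatocytes and of other cells that liver samples can hold, S100a8 of the lymphocyte and neutrophil list was called higher and Alas2 of the erythroid list lower. Of the 5 erythroid genes tested, 3 had a log2 fold change above 0, and the median of that list was 0.06. Over all 13697 genes tested 2.75% were called, and 2327 had an unadjusted p under 0.05. S100a8 measured 0.121 to 0.369 CPM in vehicle mice and 0.297 to 1.24 CPM in CDDO-Me mice (log2 fold change 1.69, SE 0.38, adjusted p = 0.023) and lost its call without CDDO-Me mouse 1, 2 or 4 or vehicle mouse 1, 3, 4 or 5 (adjusted p 0.050 to 0.061) and in a fit of all 30 libraries (adjusted p = 0.40). Of 7 exocrine pancreas and adipose markers, Amy2a5 and Lep had 0 counts in all 10 libraries, Cela2a had 3 to 19 per library and was tested without a call, and the other 4 had at most 15 in any library. Principal component 1, which held 26.5% of the variance of log2 CPM, placed the CDDO-Me mice at 12.0 to 28.3 and the vehicle mice at -25.9 to -10.2. Component 2, with 19.7%, set vehicle mouse 2 (-35.7) and CDDO-Me mouse 5 (-31.8) apart from the other 8 mice (4.92 to 12.3). One library of each treatment stood apart in the same direction, so this component did not follow the treatment. What set these livers apart was not tested. The counts over all genes, and those of gene lists that differed most, are also given without both. Component 3, with 14.8%, placed CDDO-Me mice 1 and 2 at 20.2 and 14.9 and CDDO-Me mice 3 to 5 at -25.5 to -11.2. Vehicle mouse 2 was at 19.3 and the other vehicle mice at -4.74 to 3.74. What divided the treated mice was not tested.

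**Figure D1:**
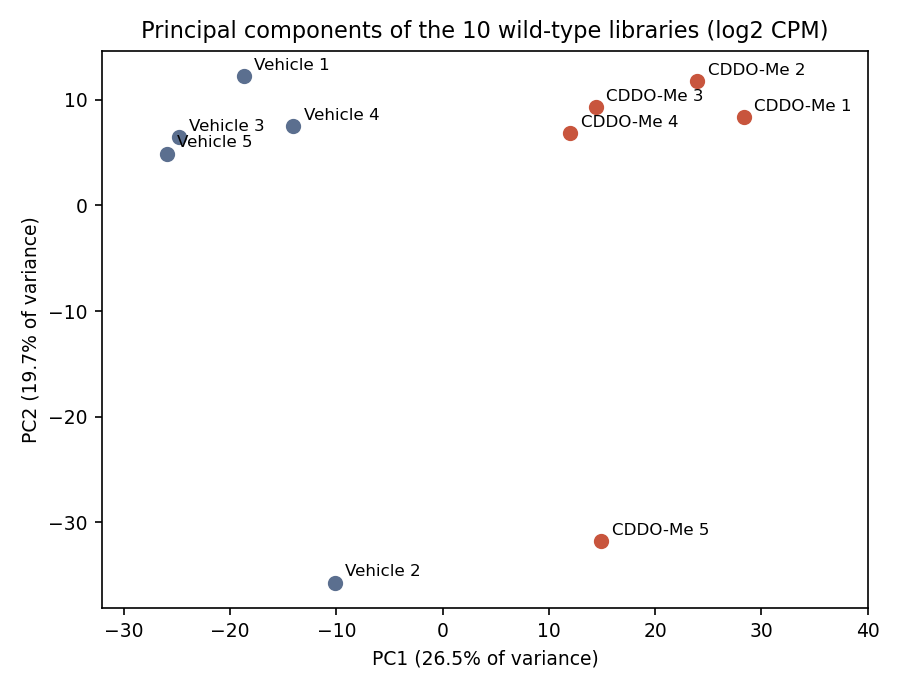
Principal components 1 and 2 of log2 CPM in the 10 wild-type libraries, 1 point per mouse, with vehicle in blue and CDDO-Me in red. The treatments separate along component 1, and vehicle mouse 2 and CDDO-Me mouse 5 lie apart along component 2 at -35.7 and -31.8.

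More genes rose than fell after CDDO-Me. Of 13697 genes tested with edgeR's quasi-likelihood test, 227 were called higher and 150 lower. A call needed an adjusted p (false discovery rate) under 0.05 together with a log2 fold change of 0.5 or more in either direction. These calls were 2.75% of the genes tested, with 1.66% higher and 1.10% lower. An unadjusted p under 0.05, which is counted for several lists below, was found for 2327 of the 13697 genes. The median log2 fold change of all genes tested was -0.01. Rises reached further than falls. Among the genes called higher and above 3 counts in some vehicle library, 91 had a log2 fold change of at least 1, 21 of at least 2, and 11 of at least 3, whereas 67, 11, and 0 of the genes called lower passed the same sizes downwards. The medians were nevertheless of like size, 0.86 for the genes called higher and -0.92 for those called lower. The levels of the 2 groups of mice did not overlap in 186 of the 227 genes called higher and in 119 of the 150 called lower, against 748 genes (5.46%) of all tested. Protein-coding genes made up 209 of the 227 and 120 of the 150.

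The genes called higher took a sizeable part of the hepatic messenger RNA. Together they made up 4.15% to 4.94% of the counts in vehicle mice and 8.59% to 9.56% in CDDO-Me mice, and those called lower 3.74% to 4.38% and 1.79% to 2.36%. All 5 treated mice shifted by a similar amount. Their median log2 deviation from the vehicle mean over the genes called higher was between 0.82 and 0.91, and over the genes called lower between -0.94 and -0.80, which describes the genes the calls selected. CDDO-Me mouse 5 was the farthest from vehicle in 76 of the 227 genes called higher and the nearest to it in 54, and among the 150 called lower it was the farthest in 30 and the nearest in 40. Without this mouse and vehicle mouse 2, 296 genes were called higher and 268 lower, and 343 of these calls were shared with the full comparison. In a fit of all 30 libraries, in which the groups of the 2 mutant genotypes add to the estimate of the spread, 104 genes were called higher and 43 lower. The cause of the lost calls was not tested.

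**Figure D2:**
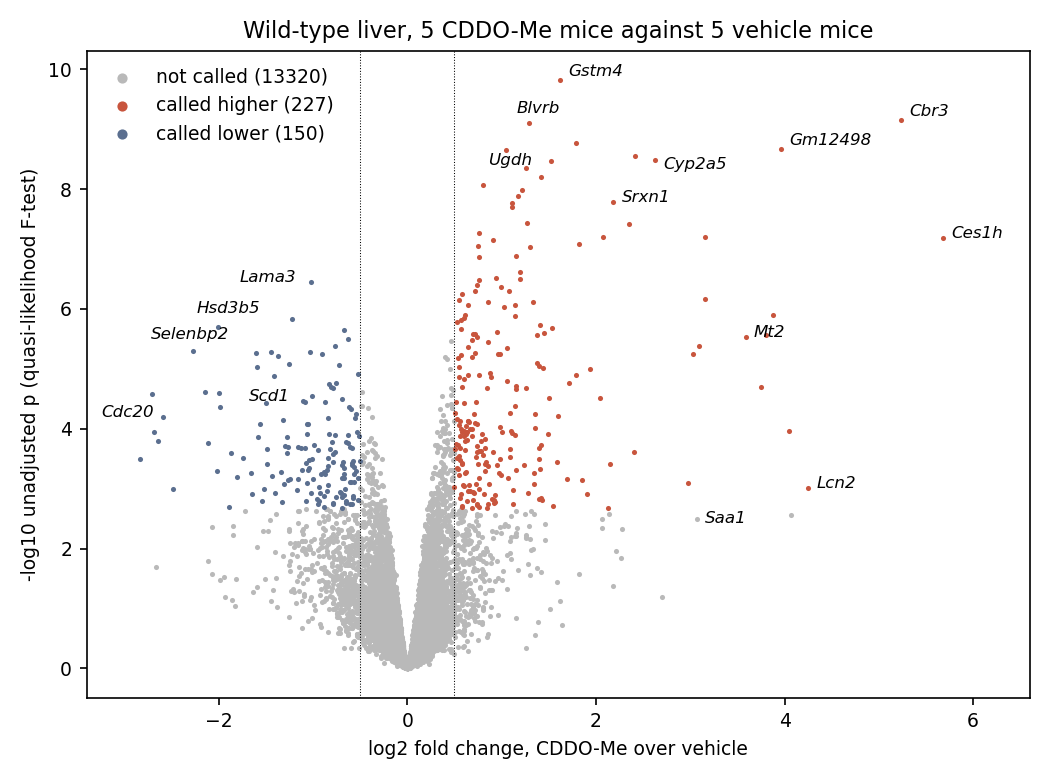
Log2 fold change of CDDO-Me over vehicle (horizontal) against -log10 of the unadjusted p (vertical) for the 13697 genes tested in wild-type liver, with 227 genes called higher in red, 150 called lower in blue, and dotted lines at the fold-change threshold of 0.5. Called rises reach further from 0 than called falls, with 11 genes at a log2 fold change of at least 3 and 0 genes at -3 or lower. Those 11 leave out 2 genes at or under 3 counts in every vehicle library, whose fitted values are plotted but depend on the prior count.

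No transcript of the regulators was called. Nfe2l2 (ENSMUSG00000015839.6, chromosome 2, 75675513 to 75704641), which encodes NRF2, measured 67.2, 62.5, 64.6, 68.2, and 58.3 CPM in vehicle mice 1 to 5 and 50.99, 46.4, 57.4, 55.2, and 48.2 CPM in CDDO-Me mice 1 to 5. Its levels in the CDDO-Me mice lay below those of all vehicle mice, and the difference passed the false discovery rate but not the size threshold (log2 fold change -0.31, SE 0.07, adjusted p = 0.03). Keap1 (ENSMUSG00000003308.15, chromosome 9, 21229730 to 21239361) measured 48.4, 63.1, 47.1, 58.02, and 50.5 CPM in vehicle mice 1 to 5 and 69.9, 75.1, 59.3, 59.97, and 66.9 CPM in CDDO-Me mice 1 to 5, with overlap between the groups. Keap1 had a fold change of 0.31 on the log2 scale (SE 0.10, adjusted p = 0.096). Mafg, a small MAF partner of NRF2, measured 81.6 to 91.4 CPM in vehicle mice and 98.1 to 134 CPM in CDDO-Me mice without overlap (log2 fold change 0.37, SE 0.08, adjusted p = 0.02), also under the size threshold. Hmox1, which encodes the heme oxygenase HO-1 and is often used as a marker of oxidative stress, measured 13.5, 14.1, 16.4, 13.8, and 13.3 CPM in vehicle mice 1 to 5 and 14.6, 14.9, 14.5, 15.3, and 21.2 CPM in CDDO-Me mice 1 to 5. For Hmox1, the log2 fold change was 0.18 (SE 0.11, adjusted p = 0.47). CDDO-Me mouse 5 was alone above 16.4 CPM. Of the 12 genes listed as NRF2 and its partners, 0 were called in either direction by edgeR or DESeq2, and 4 had an unadjusted p under 0.05. Over all genes tested edgeR called 2.75%, so a list of this size would give few calls or none. Of the 13697 genes tested, 2327 had an unadjusted p under 0.05.

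Glutathione S-transferases, which conjugate electrophiles to glutathione, were higher in many members. Of 22 tested, 10 were called (45.5%, against 2.75% of all genes tested), and all were higher. The list's median log2 fold change was 0.44, and its summed level was 8911 to 10350.2 CPM in vehicle mice and 19304 to 25359 CPM in CDDO-Me mice. The mu-class genes stand in a cluster on chromosome 3 between 107895821 and 108044894, in which 4 of 7 genes tested were called higher. Gstm1 (ENSMUSG00000058135.12, chromosome 3, 108012255 to 108017973) measured 2108, 2640.3, 1617, 1805, and 1575 CPM in vehicle mice 1 to 5 and 9788, 8614, 10310.5, 10233, and 13042 CPM in CDDO-Me mice 1 to 5. Its levels did not overlap between the groups (5.33-fold, log2 fold change 2.42, SE 0.16, adjusted p = 5.1e-06). Gstm4 measured 108, 96.1, 92.2, 94.5, and 81.6 CPM in vehicle mice 1 to 5 and 308, 276, 264, 277, and 324 CPM in CDDO-Me mice 1 to 5, a narrow range in both groups. Gstm4 had a fold change of 1.62 on the log2 scale (SE 0.09, adjusted p = 2.1e-06). Gstm3 (ENSMUSG00000004038.9, chromosome 3, 107963696 to 107969283) measured 160.1, 263, 89.8, 122, and 92.5 CPM in vehicle mice 1 to 5 and 1257, 846, 1109, 1025, and 2252 CPM in CDDO-Me mice 1 to 5. The groups lay far apart, with the highest level in CDDO-Me mouse 5 (8.92-fold, log2 fold change 3.16, SE 0.34, adjusted p = 2.3e-04). Gstm2 measured 55.8 to 88.5 CPM in vehicle mice and 155 to 291 CPM in CDDO-Me mice (log2 fold change 1.45, SE 0.18, adjusted p = 5.8e-04). The alpha-class genes Gsta1 and Gsta2 and the epoxide hydrolase Ephx1 are named here after their values were seen. Gsta1 measured 1.84, 3.65, 1.63, 1.57, and 1.60 CPM in vehicle mice 1 to 5 and 8.85, 8.01, 23.6, 33.1, and 64.2 CPM in CDDO-Me mice 1 to 5. CDDO-Me mice 1 and 2 were the lowest treated mice and mouse 5 the highest (log2 fold change 3.75, SE 0.56, adjusted p = 0.0024). Gsta2 measured 19.05 to 46.1 CPM in vehicle mice and 67.8 to 221 CPM in CDDO-Me mice (log2 fold change 2.04, SE 0.32, adjusted p = 0.0032). Mgst3, a membrane-bound glutathione S-transferase and peroxidase, had a log2 fold change of 1.14 (adjusted p = 2.7e-04), Gstp1 of 0.74 (adjusted p = 6.2e-04), and the abundant Mgst1 of 0.27 (adjusted p = 0.22), which was not called. Gstp1 and Gsta2 lost their calls in the fit of all 30 libraries, where 7 members of the list were called. Because reads with more than 1 position were not counted, near-identical family members are measured in part.

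A non-coding transcript of the same cluster rose more than most of its coding neighbours. Gm12498 (ENSMUSG00000087357.1, chromosome 3, 108018294 to 108025249), annotated as a lincRNA on the same strand as Gstm1 with 321 bases between their annotated ends, measured 0.472, 0.369, 0.408, 0.181, and 0.102 CPM in vehicle mice 1 to 5 and 4.61, 4.20, 5.06, 5.15, and 4.85 CPM in CDDO-Me mice 1 to 5. Gm12498 was 15.5-fold higher (log2 fold change 3.96, SE 0.26, adjusted p = 5.1e-06). The processed pseudogene Gm18635 lies 885 bases past the end of Ugt2b35 on the same strand of chromosome 5 and measured 4.16 to 5.49 CPM in vehicle mice and 14.6 to 18.9 CPM in CDDO-Me mice (log2 fold change 1.79, SE 0.12, adjusted p = 5.1e-06). A further lincRNA, Gm34934 on chromosome 14, measured 5.73 to 7.54 CPM in vehicle mice and 14.3 to 17.4 CPM in CDDO-Me mice (log2 fold change 1.21, SE 0.09, adjusted p = 1.1e-05). None of these overlapped between groups. Whether the first 2 transcripts are separate from their neighbours cannot be told from counts per gene.

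Enzymes that make and recycle glutathione and thioredoxin were called in 1 direction. Of 25 tested, 7 were called (28%, against 2.75% of all genes tested), and all were higher. The median was 0.17 over the list, and 9 were called without CDDO-Me mouse 5 and vehicle mouse 2. Srxn1 (ENSMUSG00000032802.8, chromosome 2, 152105516 to 152111376), which encodes the sulfiredoxin that repairs overoxidized peroxiredoxins, measured 50.97, 67.1, 51.3, 57.5, and 47.9 CPM in vehicle mice 1 to 5 and 214, 187, 219, 261, and 369 CPM in CDDO-Me mice 1 to 5. The lowest treated mouse was well above the highest vehicle mouse (4.55-fold, log2 fold change 2.19, SE 0.17, adjusted p = 1.4e-05). Txnrd1 (ENSMUSG00000020250.10, chromosome 10, 82833951 to 82897712), the cytosolic thioredoxin reductase, measured 146, 141, 145, 143, and 147 CPM in vehicle mice 1 to 5 and 265, 284, 298, 359.9, and 353 CPM in CDDO-Me mice 1 to 5, with almost no spread among vehicle mice. Txnrd1 had a fold change of 1.11 on the log2 scale (SE 0.09, adjusted p = 1.4e-05). Its substrate thioredoxin, encoded by Txn1, rose by a smaller amount (log2 fold change 0.57, SE 0.07, adjusted p = 5.2e-04). Gclc (ENSMUSG00000032350.9, chromosome 9, 77754535 to 77794485) and Gclm (ENSMUSG00000028124.15, chromosome 3, 122245557 to 122270732) encode the catalytic and modifier subunits of the enzyme that limits glutathione synthesis. Gclc measured 434, 356, 364, 372, and 365 CPM in vehicle mice 1 to 5 and 726, 681, 970.4, 1334, and 1189 CPM in CDDO-Me mice 1 to 5, and CDDO-Me mice 4 and 5 had the highest levels (log2 fold change 1.37, SE 0.17, adjusted p = 5.9e-04). Gclm measured 191, 174, 184, 185, and 169 CPM in vehicle mice 1 to 5 and 277, 275, 296, 349.8, and 307 CPM in CDDO-Me mice 1 to 5. For Gclm, the log2 fold change was 0.74 (SE 0.08, adjusted p = 1.6e-04). Glutathione reductase, Gsr, which returns oxidized glutathione to its reduced form, measured 69.6 to 89.6 CPM in vehicle mice and 117 to 163 CPM in CDDO-Me mice (log2 fold change 0.85, SE 0.11, adjusted p = 7.0e-04). The gastrointestinal glutathione peroxidase Gpx2 had 3 counts or fewer in every vehicle library and measured 0.0302 to 0.101 CPM in vehicle mice and 0.449 to 1.34 CPM in CDDO-Me mice. The CDDO-Me mean is at least 6.35-fold higher than the 0.129 CPM that 3 counts give in the shallowest vehicle library. Prdx1 (log2 fold change 0.46, adjusted p = 0.003) and the catalase gene Cat (0.35, adjusted p = 0.04) passed the false discovery rate but not the size threshold, which Prdx1 passed without vehicle mouse 2 (adjusted p of 0.0014). Slc7a11, the cystine transporter that supplies glutathione synthesis in many cell types, had 0 to 4 counts per library and was not tested.

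**Figure D3:**
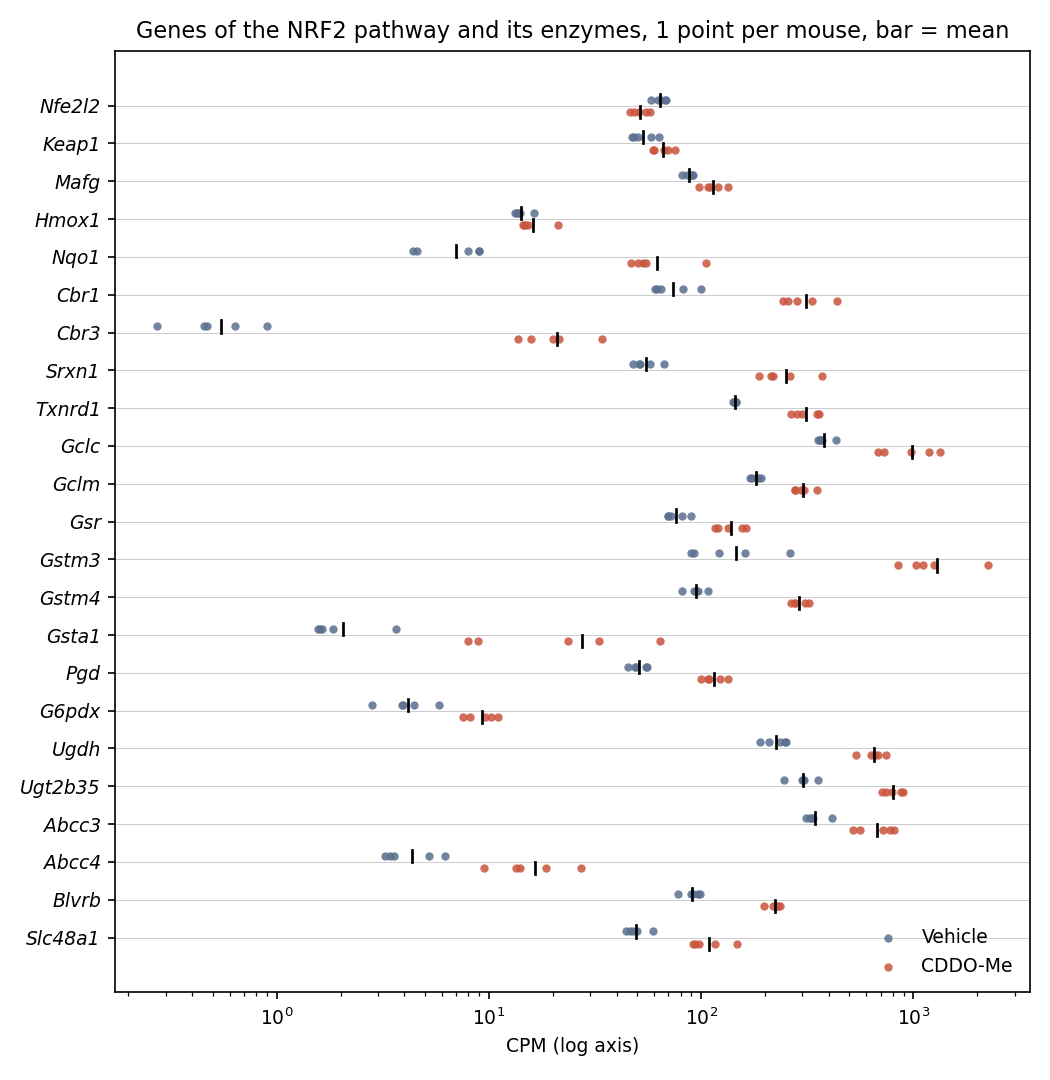
CPM on a log axis of 23 genes of the NRF2 pathway and of detoxification enzymes in each mouse, vehicle in blue and CDDO-Me in red, with the mean of each group as a black bar. Nfe2l2, Keap1, Mafg, and Hmox1 were not called, and the groups overlap for Keap1 and Hmox1 but not for the other 21 genes.

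The pentose phosphate pathway supplies the NADPH that these reductases use. Of 11 genes of NADPH supply tested, 3 were called (27.3%, against 2.75% of all genes tested). All of them were higher and of this pathway, while the median of the list was 0.04. Pgd (ENSMUSG00000028961.15, chromosome 4, 149149991 to 149166771), 6-phosphogluconate dehydrogenase, measured 48.96, 55.6, 49.5, 55.03, and 45.1 CPM in vehicle mice 1 to 5 and 123.3, 109, 107, 99.6, and 133 CPM in CDDO-Me mice 1 to 5. Pgd had a fold change of 1.17 on the log2 scale (SE 0.09, adjusted p = 1.3e-05). G6pdx, glucose-6-phosphate dehydrogenase, the first enzyme of the pathway, measured 3.90, 3.95, 4.44, 5.80, and 2.80 CPM in vehicle mice 1 to 5 and 8.17, 9.61, 10.2, 7.51, and 11.01 CPM in CDDO-Me mice 1 to 5. For G6pdx, the log2 fold change was 1.15 (SE 0.17, adjusted p = 0.0024). The transketolase gene Tkt measured 149 to 171 CPM in vehicle mice and 247 to 280.1 CPM in CDDO-Me mice (log2 fold change 0.75, SE 0.07, adjusted p = 4.7e-05). No level overlapped between the groups in any of the 3 genes. Idh1, cytosolic isocitrate dehydrogenase and another source of NADPH, had a log2 fold change of 0.16 with a 95% confidence interval of -0.0034 to 0.32 (adjusted p = 0.31).

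Of 30 enzymes acting on quinones, carbonyls, and epoxides, 10 were called, all higher, with a median of 0.35 over the list. The calls made up 33.3% of it, where all genes tested gave 2.75%. In the fit of all 30 libraries 7 were called. One gene of the list was called lower without any one of CDDO-Me mice 1 and 4 and vehicle mice 1 and 4. Cbr1 (ENSMUSG00000051483.9, chromosome 16, 93605853 to 93610505), a carbonyl reductase, measured 64.7, 99.5, 60.6, 81.7, and 62.1 CPM in vehicle mice 1 to 5 and 283, 243, 257, 333, and 437 CPM in CDDO-Me mice 1 to 5. Cbr1 was 4.22-fold higher (log2 fold change 2.08, SE 0.18, adjusted p = 3.9e-05). Its neighbour Cbr3 was under 1 CPM in every vehicle mouse and measured 0.273 to 0.905 CPM in vehicle mice and 13.7 to 33.97 CPM in CDDO-Me mice (log2 fold change 5.24, SE 0.31, adjusted p = 3.6e-06). Nqo1, the quinone reductase most used as a readout of NRF2, measured 9.002, 8.98, 4.39, 7.9996, and 4.57 CPM in vehicle mice 1 to 5 and 53.3, 46.8, 50.6, 54.8, and 105 CPM in CDDO-Me mice 1 to 5. For Nqo1, the log2 fold change was 3.16 (SE 0.28, adjusted p = 3.9e-05). CDDO-Me mouse 5 was far above the other treated mice. The aldo-keto reductase Akr1b8 measured 1.64 to 2.27 CPM in vehicle mice and 4.55 to 7.68 CPM in CDDO-Me mice (log2 fold change 1.82, SE 0.16, adjusted p = 4.6e-05). The aldehyde oxidase Aox1 measured 132 to 183 CPM in vehicle mice and 283 to 396 CPM in CDDO-Me mice (log2 fold change 1.19, SE 0.12, adjusted p = 1.1e-04), and Ephx1 485 to 670.5 CPM in vehicle mice and 1043 to 1484 CPM in CDDO-Me mice (log2 fold change 1.20, SE 0.12, adjusted p = 1.3e-04). Esd, an esterase that completes formaldehyde clearance through glutathione, measured 204 to 219.8 CPM in vehicle mice and 344 to 392 CPM in CDDO-Me mice (log2 fold change 0.80, SE 0.06, adjusted p = 9.8e-06). Aldh2, the mitochondrial aldehyde dehydrogenase, was close to level at 1554 to 1776 CPM in vehicle mice and 1775 to 1857 CPM in CDDO-Me mice (log2 fold change 0.09, SE 0.07, adjusted p = 0.55).

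Calls among genes of glucuronidation covered the sugar donor, its transporter, and the transferases. Of 21 genes tested, 8 were called higher and 2 lower, with a median of 0.38. Ugdh (ENSMUSG00000029201.14, chromosome 5, 65413221 to 65435949), which makes UDP-glucuronic acid from UDP-glucose, measured 249, 249.8, 208, 235, and 189.6 CPM in vehicle mice 1 to 5 and 657, 536, 632, 679.5, and 741 CPM in CDDO-Me mice 1 to 5. Ugdh was 2.87-fold higher (log2 fold change 1.52, SE 0.10, adjusted p = 5.1e-06). Slc35d1, which carries UDP-sugars into the endoplasmic reticulum, where the transferases work, measured 118 to 138 CPM in vehicle mice and 239 to 282 CPM in CDDO-Me mice (log2 fold change 1.05, SE 0.07, adjusted p = 5.1e-06). Ugp2, which makes UDP-glucose, measured 247 to 381 CPM in vehicle mice and 366 to 605 CPM in CDDO-Me mice (log2 fold change 0.58, SE 0.15, adjusted p = 0.048), but it was not called without CDDO-Me mouse 3, 4 or 5 or vehicle mouse 2, 3, 4 or 5 (adjusted p 0.066 to 0.122). The UDP-glucuronosyltransferase cluster on chromosome 5 (86889767 to 87424203) moved both ways, with 4 of 7 genes tested higher and 2 lower. Ugt2b35 measured 355, 246, 304, 301, and 300.1 CPM in vehicle mice 1 to 5 and 715, 789.6, 875, 889, and 740.3 CPM in CDDO-Me mice 1 to 5. For Ugt2b35, the log2 fold change was 1.41 (SE 0.10, adjusted p = 7.8e-06). Ugt2b5 (log2 fold change 0.86, SE 0.09, adjusted p = 2.4e-04) and Ugt2b36 (log2 fold change 0.58, SE 0.09, adjusted p = 0.0024) also rose. In contrast, Ugt2b38 measured 7.24, 13.004, 15.8, 5.16, and 11.8 CPM in vehicle mice 1 to 5 and 1.06, 1.86, 2.75, 2.95, and 3.27 CPM in CDDO-Me mice 1 to 5, a fall in every treated mouse below every vehicle mouse (log2 fold change -2.15, SE 0.33, adjusted p = 0.0027). Ugt2b37 measured 0.664 to 2.93 CPM in vehicle mice and 0.227 to 0.510 CPM in CDDO-Me mice (log2 fold change -1.81, SE 0.40, adjusted p = 0.023) and lost its call without CDDO-Me mouse 1 or 2 (adjusted p 0.052 to 0.059). Ugt2b36, Ugt2b38, and Ugp2 were not called in the fit of all 30 libraries, and without CDDO-Me mouse 5 and vehicle mouse 2 the higher calls were 6.

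Some transporters, among them efflux pumps for the resulting conjugates, were also higher. Of 21 transporters tested, 4 were called (19.0%, against 2.75% of all genes tested), all higher, with a median of 0.19. A log2 fold change below 0 was found for 8, and 1 was called lower without vehicle mouse 2. Abcc4 (ENSMUSG00000032849.14, chromosome 14, 118482692 to 118706219), a pump of the basolateral membrane, measured 5.23, 6.20, 3.42, 3.23, and 3.58 CPM in vehicle mice 1 to 5 and 9.46, 13.5, 13.96, 18.5, and 27.1 CPM in CDDO-Me mice 1 to 5. Abcc4 had a fold change of 1.94 on the log2 scale (SE 0.27, adjusted p = 0.0014). The level in CDDO-Me mouse 5 was the highest, and no treated mouse was within the vehicle range. The basolateral Abcc3 measured 313 to 415 CPM in vehicle mice and 521 to 809 CPM in CDDO-Me mice (log2 fold change 0.98, SE 0.13, adjusted p = 9.3e-04) and the canalicular Abcc2 651 to 825 CPM in vehicle mice and 955 to 1513 CPM in CDDO-Me mice (log2 fold change 0.73, SE 0.12, adjusted p = 0.0037). The fourth, Abcb1a, measured 2.08 to 2.81 CPM in vehicle mice and 3.15 to 5.65 CPM in CDDO-Me mice (log2 fold change 0.71, SE 0.17, adjusted p = 0.034), but it lost its call without CDDO-Me mouse 2 or 3 or vehicle mouse 1, 3, 4 or 5 (adjusted p 0.051 to 0.095) and in the fit of all 30 libraries. The canalicular bile salt pump gene Abcb11 was lower by less than the size threshold (log2 fold change -0.33, SE 0.07, adjusted p = 0.014), and the bile acid uptake transporter Slc10a1 measured 413 to 757 CPM in vehicle mice and 501 to 639 CPM in CDDO-Me mice (log2 fold change -0.16, SE 0.14, adjusted p = 0.61). Of 15 genes of bile acid synthesis, 0 were called by edgeR and 1 was called higher by DESeq2, with 7 at an unadjusted p under 0.05. The share called by edgeR over all genes tested was 2.75%. Cyp7a1, the rate-limiting enzyme of bile acid synthesis, measured 125, 117, 131, 172, and 119 CPM in vehicle mice 1 to 5 and 297, 249, 185, 134, and 173 CPM in CDDO-Me mice 1 to 5. CDDO-Me mouse 4 lay inside the vehicle range (log2 fold change 0.65, SE 0.19, adjusted p = 0.081), and the gene passed the thresholds without CDDO-Me mouse 4 (adjusted p of 0.026) and with DESeq2 (adjusted p = 0.012).

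Heme and iron genes were higher in 6 of 21 members tested, with a median of 0.19. Blvrb (ENSMUSG00000040466.16, chromosome 7, 27447978 to 27466144), biliverdin reductase B, measured 91.995, 77.5, 89.3, 96.3, and 99.1 CPM in vehicle mice 1 to 5 and 219, 198, 231, 234, and 229 CPM in CDDO-Me mice 1 to 5. For Blvrb, the log2 fold change was 1.29 (SE 0.08, adjusted p = 3.6e-06). Slc48a1, a heme transporter, measured 44.2 to 59.2 CPM in vehicle mice and 91.2 to 148 CPM in CDDO-Me mice (log2 fold change 1.15, SE 0.13, adjusted p = 3.6e-04). The ferritin subunits that store iron rose as well, Ftl1 at 1288 to 2067 CPM in vehicle mice and 2568 to 3365 CPM in CDDO-Me mice (log2 fold change 0.84, SE 0.13, adjusted p = 0.0024) and Fth1 at 1141 to 1430.0 CPM in vehicle mice and 1702 to 2464 CPM in CDDO-Me mice (log2 fold change 0.65, SE 0.11, adjusted p = 0.0061). The iron exporter ferroportin, Slc40a1, measured 83.02 to 142 CPM in vehicle mice and 139 to 222 CPM in CDDO-Me mice (log2 fold change 0.74, SE 0.15, adjusted p = 0.012). Alas1, the first enzyme of hepatic heme synthesis, named after its values were seen, measured 167 to 392 CPM in vehicle mice and 361 to 736 CPM in CDDO-Me mice with overlap (log2 fold change 1.00, SE 0.22, adjusted p = 0.021). It lost its call without vehicle mouse 3 (adjusted p of 0.065) and in the fit of all 30 libraries. Its erythroid counterpart Alas2 measured 122 to 153 CPM in vehicle mice and 73.9 to 118 CPM in CDDO-Me mice and was lower in every treated mouse (log2 fold change -0.60, SE 0.12, adjusted p = 0.011), also without a call in that fit.

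Antioxidant response elements were looked for in RefSeq promoters of build GRCm38.p6, over the 250 bases before each annotated start. The core TGACNNNGC was searched on both strands, as was its form TGACTCAGC, which also holds TGACTCA, the site bound by AP-1 factors. Of 32851 promoters in the table, 12.4% held the core and 0.454% held TGACTCAGC. A comparison of the called genes with the rest is void, because promoters were found for 76.7% of the genes called higher and 66.7% of those called lower, under the 80% needed. The sequences of 6 genes called higher that hold the core are given as examples of the elements, with the match in capitals. They include Htatip2 and Pir, named after their values were seen. Htatip2 measured 28.6 to 57.8 CPM in vehicle mice and 78.2 to 136 CPM in CDDO-Me mice (log2 fold change 1.37, SE 0.19, adjusted p = 0.0012). Pir measured 23.8 to 35.5 CPM in vehicle mice and 41.8 to 67.2 CPM in CDDO-Me mice (log2 fold change 0.89, SE 0.13, adjusted p = 0.0018). In Txnrd1, Gclm, and Pir the match reads on the opposite strand and begins 92, 134, and 214 bases before the start. In Htatip2, Mt2, and Ugdh it reads on the strand of the gene and begins 49, 79, and 132 bases before the start, and Ugdh holds another on the opposite strand at 94 bases. A match is a description of the letters and not evidence of binding.
Txnrd1 (chr10:82858956-82859205, strand plus): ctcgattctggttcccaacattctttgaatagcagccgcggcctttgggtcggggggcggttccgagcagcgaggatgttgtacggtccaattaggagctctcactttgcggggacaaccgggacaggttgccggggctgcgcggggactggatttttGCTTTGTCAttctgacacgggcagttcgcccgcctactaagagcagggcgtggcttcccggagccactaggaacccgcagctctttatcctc
Gclm (chr3:122245307-122245556, strand plus): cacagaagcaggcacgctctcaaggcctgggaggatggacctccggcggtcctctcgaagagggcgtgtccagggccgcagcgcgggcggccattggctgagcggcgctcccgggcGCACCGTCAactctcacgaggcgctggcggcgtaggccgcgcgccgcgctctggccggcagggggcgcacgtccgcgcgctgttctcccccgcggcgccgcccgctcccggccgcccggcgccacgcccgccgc
Ugdh (chr5:65435843-65436092, strand minus): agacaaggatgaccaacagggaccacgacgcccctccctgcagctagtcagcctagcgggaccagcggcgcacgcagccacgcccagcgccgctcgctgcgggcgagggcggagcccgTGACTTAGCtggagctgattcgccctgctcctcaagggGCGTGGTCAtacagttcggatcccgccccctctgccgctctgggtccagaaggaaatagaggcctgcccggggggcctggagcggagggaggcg
Htatip2 (chr7:49759262-49759511, strand plus): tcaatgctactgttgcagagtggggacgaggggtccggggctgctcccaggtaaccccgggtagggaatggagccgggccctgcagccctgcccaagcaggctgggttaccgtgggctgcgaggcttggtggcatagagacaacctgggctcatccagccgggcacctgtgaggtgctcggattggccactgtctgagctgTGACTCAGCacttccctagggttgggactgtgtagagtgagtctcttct
Pir (chrX:164269181-164269430, strand plus): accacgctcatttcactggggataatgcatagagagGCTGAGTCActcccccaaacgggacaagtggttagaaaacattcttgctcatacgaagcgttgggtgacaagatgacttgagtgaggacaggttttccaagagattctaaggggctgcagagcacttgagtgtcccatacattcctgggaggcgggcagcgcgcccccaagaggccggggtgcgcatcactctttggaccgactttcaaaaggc
Mt2 (chr8:94172368-94172617, strand plus): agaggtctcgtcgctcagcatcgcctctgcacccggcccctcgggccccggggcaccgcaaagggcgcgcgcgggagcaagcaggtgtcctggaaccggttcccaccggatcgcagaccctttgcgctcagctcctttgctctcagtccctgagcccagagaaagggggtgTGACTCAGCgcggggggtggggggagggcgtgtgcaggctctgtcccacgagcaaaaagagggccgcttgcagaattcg

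Drug-inducible cytochromes P450 and their receptors moved in both directions, with 5 of 24 tested higher, 2 lower, and a median of 0.06. Cyp2a5 (ENSMUSG00000005547.14, chromosome 7, 26835305 to 26843548), an enzyme that oxidizes coumarin and nicotine, rose most at 815, 486, 505, 665, and 565 CPM in vehicle mice 1 to 5 and 3423, 2751, 3437, 4465, and 4607 CPM in CDDO-Me mice 1 to 5. Cyp2a5 was 6.15-fold higher (log2 fold change 2.62, SE 0.18, adjusted p = 5.1e-06). Nr1i3 (ENSMUSG00000005677.14, chromosome 1, 171213970 to 171220701), which encodes the xenobiotic receptor CAR, measured 178, 93.7, 175, 202, and 206 CPM in vehicle mice 1 to 5 and 449, 330.1, 428, 371, and 311 CPM in CDDO-Me mice 1 to 5. All treated mice were above all vehicle mice, and vehicle mouse 2 was the lowest (log2 fold change 1.15, SE 0.19, adjusted p = 0.004). Cyp2b10, the best known target of CAR, measured 38.7, 15.4, 10.7, 20.2, and 23.9 CPM in vehicle mice 1 to 5 and 26.3, 22.2, 11.2, 9.91, and 8.27 CPM in CDDO-Me mice 1 to 5, with overlapping groups and a wide interval (log2 fold change -0.48, 95% confidence interval -1.28 to 0.32, adjusted p = 0.58). Cyp3a11 (ENSMUSG00000056035.8, chromosome 5, 145854426 to 145879964), the main hepatic P450 of drug oxidation and a target of the receptor PXR, fell at 11084, 7980.0, 7388, 6226, and 7774 CPM in vehicle mice 1 to 5 and 4204, 3606, 4010.4, 3781, and 4112 CPM in CDDO-Me mice 1 to 5. For Cyp3a11, the log2 fold change was -1.04 (SE 0.14, adjusted p = 9.3e-04). The decrease was to less than the lowest vehicle level in all 5 treated mice. Cyp2c55 fell too (25.1 to 57.01 CPM in vehicle mice and 11.95 to 21.03 CPM in CDDO-Me mice, log2 fold change -1.27, SE 0.24, adjusted p = 0.011), whereas Cyp3a13 (log2 fold change 0.56, SE 0.10, adjusted p = 0.0061) and the aryl hydrocarbon receptor target Cyp1a1 (1.27 to 1.96 CPM in vehicle mice and 2.56 to 4.19 CPM in CDDO-Me mice, log2 fold change 0.98, SE 0.17, adjusted p = 0.0071) rose. Cyp1a2, a neighbour and co-target of Cyp1a1, measured 521 to 890.0 CPM in vehicle mice and 880.2 to 1350.5 CPM in CDDO-Me mice (log2 fold change 0.65, SE 0.15, adjusted p = 0.033) and lost its call without CDDO-Me mouse 1, 3 or 4 or vehicle mouse 3 or 4 (adjusted p 0.051 to 0.093). In the fit of all 30 libraries 0 members of this list were called by edgeR. In the 10 libraries 7 were called by edgeR, 8 by DESeq2, and 10 had an unadjusted p under 0.05.

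Carboxylesterases, which hydrolyse drug and lipid esters, gave 2 higher and 2 lower calls among 14 listed genes tested. These were 28.6% of the list, against 2.75% of all genes tested. Ces1g (ENSMUSG00000057074.6, chromosome 8, 93302369 to 93337308), the esterase that acts on triglyceride and cholesteryl ester, measured 323, 190.0, 230.5, 318, and 263 CPM in vehicle mice 1 to 5 and 571, 587, 790.3, 681, and 703 CPM in CDDO-Me mice 1 to 5. Ces1g had a fold change of 1.33 on the log2 scale (SE 0.15, adjusted p = 2.4e-04). Its neighbour Ces1b measured 90.8 to 109.7 CPM in vehicle mice and 207 to 282 CPM in CDDO-Me mice (log2 fold change 1.26, SE 0.09, adjusted p = 6.2e-06). Ces1h, of the same cluster, had at most 1 count in each vehicle library and measured 0 to 0.0255 CPM in vehicle mice and 0.417 to 0.612 CPM in CDDO-Me mice, with a mean in CDDO-Me mice at least 4.16-fold higher than the level given by 3 counts in the shallowest vehicle library. Ces2b fell (0.543 to 2.63 CPM in vehicle mice and 0 to 0.357 CPM in CDDO-Me mice, log2 fold change -2.83, SE 0.58, adjusted p = 0.015). Ces3b measured 384 to 586 CPM in vehicle mice and 211 to 355 CPM in CDDO-Me mice (log2 fold change -0.67, SE 0.14, adjusted p = 0.018) and lost its call without vehicle mouse 3 or 5 (adjusted p 0.051 to 0.052) and in the fit of all 30 libraries. The Ces1 and Ces2 genes share sequence within each cluster, so that their counts are partial.

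Genes of the acute phase, the set of plasma proteins that hepatocytes make in inflammation, had the highest median of any list, 0.81, with 12 of 29 tested higher. The metallothioneins are on this list because they are induced by inflammation, and also by metals and glucocorticoids. Mt1 (ENSMUSG00000031765.8, chromosome 8, 94179082 to 94180327) measured 43.6, 49.8, 14.95, 42.9, and 37.1 CPM in vehicle mice 1 to 5 and 498, 201, 148, 198, and 486 CPM in CDDO-Me mice 1 to 5. Mt1 was 8.14-fold higher (log2 fold change 3.03, SE 0.40, adjusted p = 9.3e-04). Mt2 (ENSMUSG00000031762.7, chromosome 8, 94172664 to 94173568), its neighbour on chromosome 8, measured 23.3, 23.9, 6.05, 20.04, and 13.5 CPM in vehicle mice 1 to 5 and 355, 165, 89.9, 120.0, and 309 CPM in CDDO-Me mice 1 to 5. Mt2 was 12.02-fold higher (log2 fold change 3.59, SE 0.45, adjusted p = 6.2e-04). Both were above the vehicle range in every treated mouse, with the highest levels in CDDO-Me mice 1 and 5. The other acute phase genes were uneven between treated mice. The list summed to 28125, 33622, 25602, 35243, and 27712 CPM in vehicle mice 1 to 5 and 73444, 61775, 39438, 34016, and 38352 CPM in CDDO-Me mice 1 to 5. CDDO-Me mice 1 and 2 were well above every other mouse, and CDDO-Me mouse 4 was below vehicle mouse 4. Saa1, which encodes serum amyloid A, was also highest in CDDO-Me mice 1 and 2, at 328, 108, 97.3, 1373, and 228 CPM in vehicle mice 1 to 5 and 8692, 5302, 1909, 1094, and 896 CPM in CDDO-Me mice 1 to 5, and did not pass the false discovery rate (log2 fold change 3.07, SE 0.84, adjusted p = 0.062). It did so without CDDO-Me mouse 5 or vehicle mouse 4 (adjusted p 0.0089 to 0.043) and with DESeq2 (adjusted p = 0.037). Lcn2, lipocalin 2, measured 6.34, 4.69, 2.45, 37.9, and 3.07 CPM in vehicle mice 1 to 5 and 508, 387, 54.02, 32.7, and 58.3 CPM in CDDO-Me mice 1 to 5 (log2 fold change 4.25, SE 0.99, adjusted p = 0.03), with vehicle mouse 4 inside the treated range. Haptoglobin, Hp, measured 2617, 2847, 2343, 3972, and 2469 CPM in vehicle mice 1 to 5 and 9769, 8240.2, 4927, 3931, and 4714 CPM in CDDO-Me mice 1 to 5. For Hp, the log2 fold change was 1.15 (SE 0.25, adjusted p = 0.02). Lcn2 lost its call without CDDO-Me mouse 1 or 2 or vehicle mouse 1, 3 or 5 (adjusted p 0.067 to 0.082), and Hp without CDDO-Me mouse 2 or vehicle mouse 1, 3 or 5 (adjusted p 0.051 to 0.061).

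Other members rose without overlap. Itih4 measured 1792 to 2912 CPM in vehicle mice and 3255 to 6392 CPM in CDDO-Me mice (log2 fold change 0.98, SE 0.20, adjusted p = 0.014). Serpina3m measured 181 to 329 CPM in vehicle mice and 365 to 573 CPM in CDDO-Me mice (log2 fold change 1.01, SE 0.18, adjusted p = 0.0079), and the lipopolysaccharide-binding protein gene Lbp 83.3 to 89.7 CPM in vehicle mice and 115 to 148 CPM in CDDO-Me mice (log2 fold change 0.60, SE 0.07, adjusted p = 3.8e-04). The complement component gene C3, which is not on the list and is named for the size of its change in mean CPM, measured 7236 to 10118 CPM in vehicle mice and 12574 to 15325 CPM in CDDO-Me mice (log2 fold change 0.70, SE 0.12, adjusted p = 0.0051) and was not called in the fit of all 30 libraries (adjusted p = 0.084). The fibrinogen chain Fga (log2 fold change 0.15, SE 0.13, adjusted p = 0.62) and hemopexin, Hpx (log2 fold change 0.65, SE 0.21, adjusted p = 0.11), were not called, although Hpx was called without CDDO-Me mouse 4 (adjusted p of 0.045) and with DESeq2 (adjusted p = 0.017). The number of acute phase genes called was 12 with all mice, 6 without CDDO-Me mouse 2, 7 without vehicle mouse 1, 5 without vehicle mouse 3, and 6 without vehicle mouse 5. It was 13 without CDDO-Me mouse 5 and vehicle mouse 2, and 1 acute phase gene was then called lower, as it was without CDDO-Me mouse 5 alone. In the fit of all 30 libraries 2 were called, and these were Mt1 and Mt2. The 20 immediate early genes, which respond fast to injury and handling, summed to 955, 415, 420.3, 822, and 1090.5 CPM in vehicle mice 1 to 5 and 240.2, 312, 469, 1417, and 1558 CPM in CDDO-Me mice 1 to 5. CDDO-Me mice 1 and 2 were the lowest and mice 4 and 5 the highest. None of these genes was called by edgeR or by DESeq2, 2 had an unadjusted p under 0.05, and 3 and 1 were called higher without vehicle mouse 2 and vehicle mouse 1. The share called by edgeR over all genes tested was 2.75%.

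**Figure D4:**
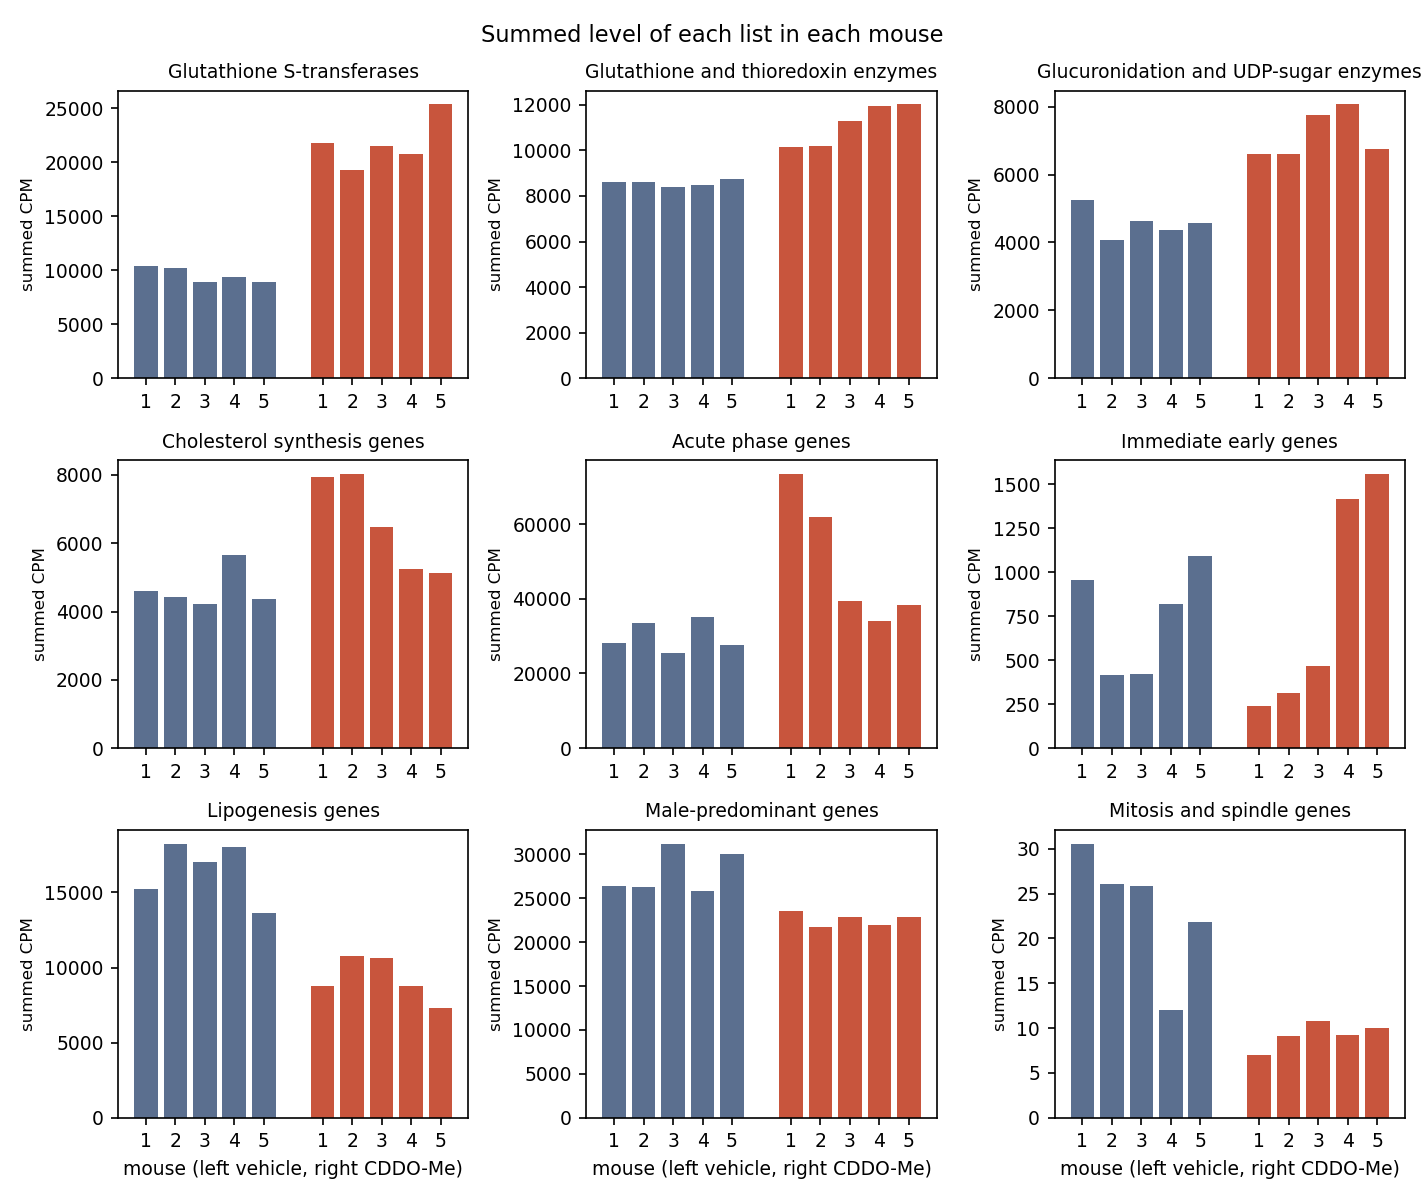
Summed CPM of 9 gene lists in each mouse, vehicle mice 1 to 5 in blue on the left of each panel and CDDO-Me mice 1 to 5 in red on the right. Glutathione S-transferases are higher in all 5 treated mice, acute phase and cholesterol synthesis genes are highest in CDDO-Me mice 1 and 2, and the 18 mitosis genes that passed the filter on low counts are lower in all 5 treated mice.

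Cholesterol and fatty acid synthesis are pathways driven by related SREBP factors. Of 24 cholesterol synthesis genes tested, 11 were called, all higher (median 0.63). Of 25 lipogenesis genes tested, 7 were called, all lower (median -0.53). The calls were 45.8% of the cholesterol synthesis genes and 28% of the lipogenesis genes, against 2.75% of all genes tested. The difference between the lists was not tested, and in the fit of all 30 libraries the calls were 0 and 1. Cyp51 (ENSMUSG00000001467.5, chromosome 5, 4081145 to 4104746), the sterol demethylase, measured 222, 206, 203, 264, and 198 CPM in vehicle mice 1 to 5 and 596, 530.4, 442, 391, and 311 CPM in CDDO-Me mice 1 to 5. Cyp51 had a fold change of 1.05 on the log2 scale (SE 0.16, adjusted p = 0.002). CDDO-Me mice 1 and 2 had the highest levels and mouse 5 the lowest of the treated mice. Idi1, the isopentenyl diphosphate isomerase, measured 21.3 to 30.2 CPM in vehicle mice and 35.7 to 74.2 CPM in CDDO-Me mice (log2 fold change 1.15, SE 0.18, adjusted p = 0.0025). Sqle, squalene epoxidase, measured 88.4 to 135 CPM in vehicle mice and 142 to 244 CPM in CDDO-Me mice (log2 fold change 0.82, SE 0.15, adjusted p = 0.0092). Hsd17b7 rose by less (log2 fold change 0.74, SE 0.14, adjusted p = 0.011). Sc5d, an enzyme of the same pathway, was not higher (log2 fold change -0.17, SE 0.16, adjusted p = 0.65). The summed level was 4607, 4419.6, 4229, 5646, and 4358 CPM in vehicle mice 1 to 5 and 7948, 8028, 6470.2, 5239.8, and 5118 CPM in CDDO-Me mice 1 to 5, with CDDO-Me mice 4 and 5 inside the vehicle range. The count of 11 became 6 without vehicle mouse 3 or without vehicle mouse 5, 13 without CDDO-Me mouse 5 and vehicle mouse 2, and 0 in the fit of all 30 libraries by edgeR. In the 10 libraries 19 of these genes had an unadjusted p under 0.05, and DESeq2 called 15.

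Scd1 (ENSMUSG00000037071.3, chromosome 19, 44394455 to 44407879), the desaturase that makes oleate, measured 9747, 12228, 10729, 11244, and 7421 CPM in vehicle mice 1 to 5 and 4010.5, 5679, 6042, 4754, and 3334 CPM in CDDO-Me mice 1 to 5, and the groups did not overlap (log2 fold change -1.11, SE 0.18, adjusted p = 0.0036). Elovl3, an elongase of very long chains, measured 179.9 to 387 CPM in vehicle mice and 38.9 to 135 CPM in CDDO-Me mice (log2 fold change -1.99, SE 0.32, adjusted p = 0.0042). Elovl5, which elongates polyunsaturated chains, measured 271 to 471 CPM in vehicle mice and 165 to 259.7 CPM in CDDO-Me mice (log2 fold change -0.77, SE 0.15, adjusted p = 0.012). Mlxipl, which encodes the carbohydrate-responsive factor ChREBP, measured 402, 401, 413, 395, and 472 CPM in vehicle mice 1 to 5 and 257, 254, 293, 277, and 227 CPM in CDDO-Me mice 1 to 5 with little spread in either group (log2 fold change -0.67, SE 0.08, adjusted p = 5.4e-04). Insig2, which retains SREBP in the endoplasmic reticulum, measured 183 to 243 CPM in vehicle mice and 118 to 154 CPM in CDDO-Me mice (log2 fold change -0.59, SE 0.10, adjusted p = 0.0042). Pnpla3, a lipid droplet acyltransferase and hydrolase named after its values were seen, measured 0.514 to 2.31 CPM in vehicle mice and 0.197 to 0.417 CPM in CDDO-Me mice (log2 fold change -2.02, SE 0.43, adjusted p = 0.02) and lost its call without CDDO-Me mouse 3 or 4 (adjusted p 0.051 to 0.052). The fatty acid synthase gene Fasn measured 372, 486, 564, 605, and 598 CPM in vehicle mice 1 to 5 and 332, 479, 284, 235, and 287 CPM in CDDO-Me mice 1 to 5. CDDO-Me mouse 2 lay within the vehicle range (log2 fold change -0.70, SE 0.18, adjusted p = 0.053), and the gene was called without CDDO-Me mouse 2 or vehicle mouse 1 (adjusted p 0.0073 to 0.03) and with DESeq2 (adjusted p = 0.0034). Fads1 was level (log2 fold change -0.09, SE 0.08, adjusted p = 0.62). Of the 7 lower lipogenesis genes, Mlxipl was the one called in the fit of all 30 libraries, and without CDDO-Me mouse 5 and vehicle mouse 2 the lower calls were 10.

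Genes of fatty acid oxidation and of PPAR-alpha, the receptor that governs it, showed no common direction, with 3 of 35 tested higher, 2 lower, and a median of -0.06. These calls were 14.3% of the list, against 2.75% of all genes tested. Fabp1, the main fatty acid binding protein of hepatocytes, fell at 4141, 2939, 3658, 2858, and 3298 CPM in vehicle mice 1 to 5 and 1641, 1841, 2215, 2284, and 1475 CPM in CDDO-Me mice 1 to 5. For Fabp1, the log2 fold change was -0.84 (SE 0.14, adjusted p = 0.0056). Acot4, a peroxisomal acyl-CoA thioesterase, measured 31.6 to 44.4 CPM in vehicle mice and 42.5 to 68.1 CPM in CDDO-Me mice (log2 fold change 0.74, SE 0.13, adjusted p = 0.0066). The other 3 calls depended on single mice, and 4 genes of the list were called lower without CDDO-Me mouse 4. Ehhadh (log2 fold change -0.50, SE 0.10, adjusted p = 0.016) was not called without CDDO-Me mouse 1 or 2 or vehicle mouse 1 or 2 (adjusted p 0.024 to 0.045), where it missed the size threshold. The hormone gene Fgf21 (log2 fold change 1.85, SE 0.41, adjusted p = 0.024) was not called without CDDO-Me mouse 4 or vehicle mouse 1, 3 or 4 (adjusted p 0.053 to 0.059), and Acot3 (log2 fold change 1.54, SE 0.39, adjusted p = 0.048) was not called without CDDO-Me mouse 1, 2 or 4 or vehicle mouse 1, 3, 4 or 5 (adjusted p 0.062 to 0.128). None of the 5 was called in the fit of all 30 libraries, by edgeR.

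Of 29 genes of glycogen, gluconeogenesis, and glycolysis tested, 4 were called higher, and the median of the list was -0.11. The calls made up 13.8% of the list, where all genes tested gave 2.75%. Gbe1 (ENSMUSG00000022707.16, chromosome 16, 70313949 to 70569716), the glycogen branching enzyme, measured 109.8, 75.9, 105, 115, and 102 CPM in vehicle mice 1 to 5 and 224, 252, 257, 267, and 222 CPM in CDDO-Me mice 1 to 5. Gbe1 had a fold change of 1.27 on the log2 scale (SE 0.11, adjusted p = 2.8e-05). Ppp1r3c, which brings protein phosphatase 1 to glycogen, measured 40.1 to 67.8 CPM in vehicle mice and 73.1 to 176 CPM in CDDO-Me mice (log2 fold change 1.09, SE 0.21, adjusted p = 0.012). Ugp2, given above, was also called. Ppp1r3c and Ugp2 were not called in the fit of all 30 libraries. No gene of the list was called lower with all mice, 3 were without vehicle mouse 2, 1 was without CDDO-Me mouse 4, and 2 were without CDDO-Me mouse 5 and vehicle mouse 2.

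Some genes that growth hormone keeps higher in male than in female liver were lower after CDDO-Me. They were taken from a list that holds genes of growth hormone signalling as well as male-predominant genes. Of 25 listed genes tested, 9 were called lower and 1 (Gstp1) higher, with a median of -0.59. Elovl3 and Ugt2b38, given above, are also on this list and among those called lower. Hsd3b5 (ENSMUSG00000038092.6, chromosome 3, 98618634 to 98630252), a male-specific steroid dehydrogenase, measured 187, 156, 314, 196, and 310.5 CPM in vehicle mice 1 to 5 and 36.6, 52.5, 71.5, 79.6, and 48.9 CPM in CDDO-Me mice 1 to 5 (4.03-fold lower, log2 fold change -2.01, SE 0.24, adjusted p = 5.0e-04). Selenbp2 measured 265 to 776 CPM in vehicle mice and 72.3 to 147 CPM in CDDO-Me mice (log2 fold change -2.27, SE 0.30, adjusted p = 9.2e-04). Nudt7, a peroxisomal CoA diphosphatase, measured 796, 777, 990.2, 694, and 994 CPM in vehicle mice 1 to 5 and 213, 316, 421, 428, and 218 CPM in CDDO-Me mice 1 to 5. For Nudt7, the log2 fold change was -1.41 (SE 0.20, adjusted p = 0.0017). In these 3 genes no treated mouse reached the lowest vehicle mouse. Among the major urinary proteins, abundant secreted pheromone carriers on chromosome 4, Mup21 measured 239 to 284 CPM in vehicle mice and 125 to 182 CPM in CDDO-Me mice (log2 fold change -0.76, SE 0.10, adjusted p = 8.0e-04) and Mup20 1403 to 2453 CPM in vehicle mice and 967 to 1894 CPM in CDDO-Me mice (log2 fold change -0.65, SE 0.22, adjusted p = 0.13). Mup20 was called without CDDO-Me mouse 5 (adjusted p of 0.042) and with DESeq2 (adjusted p = 0.030). The 22 numbered Mup genes tested summed to 16254 to 21589 CPM in vehicle mice 1, 3, 4, and 5, 9704 CPM in vehicle mouse 2, 11417 to 13445 CPM in CDDO-Me mice 1 to 4, and 8014 CPM in CDDO-Me mouse 5. The 2 mice set apart by component 2 had the lowest levels of their groups. Mup genes are near-identical and counted in part. Without these 2 mice 11 genes of the male-predominant list were called lower, and in the fit of all 30 libraries 1 was, Nudt7.

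Other metabolic genes of the hepatocyte fell in single cases. Uox (ENSMUSG00000028186.14, chromosome 3, 146570426 to 146632305), urate oxidase, measured 2250.0, 2123, 2163, 2189.9, and 2039.9 CPM in vehicle mice 1 to 5 and 1432, 1191, 1469.7, 1467, and 1412 CPM in CDDO-Me mice 1 to 5 (log2 fold change -0.63, SE 0.08, adjusted p = 6.4e-04), and it was the sole call among 33 genes of amino acid, urea, and purine catabolism, 12 of which had an unadjusted p under 0.05. The median of this list was -0.23, and its 1 call was 3.03% of the list, near the 2.75% called of all genes tested. Over all 13697 genes tested, 2327 had an unadjusted p under 0.05. Cps1, the first enzyme of the urea cycle, measured 4646 to 5383 CPM in vehicle mice and 3185 to 4218 CPM in CDDO-Me mice and passed the false discovery rate but not the size threshold (log2 fold change -0.48, SE 0.10, adjusted p = 0.017), which it passed without CDDO-Me mouse 1 or 5 or vehicle mouse 1 (adjusted p 0.012 to 0.025). Tat, tyrosine aminotransferase, measured 2046, 3222, 1844, 2368, and 2616 CPM in vehicle mice 1 to 5 and 1596, 1392, 1302, 1572, and 2903 CPM in CDDO-Me mice 1 to 5. CDDO-Me mouse 5 was far above the other treated mice, and without it Tat was called lower (log2 fold change -0.72, adjusted p = 0.018). The count of genes called lower in the list was 5 without that mouse and 2 without CDDO-Me mouse 1 or vehicle mouse 1, and 1 gene was called higher without CDDO-Me mouse 2 or vehicle mouse 1. Upp2 (ENSMUSG00000026839.17, chromosome 2, 58567298 to 58792971), a uridine phosphorylase, fell without overlap at 336, 316, 408, 475, and 429 CPM in vehicle mice 1 to 5 and 198, 105, 158, 151.1, and 209.9 CPM in CDDO-Me mice 1 to 5. Upp2 had a fold change of -1.26 on the log2 scale (SE 0.17, adjusted p = 0.0012). Among other genes with the lowest p of those that fell, the laminin chain gene Lama3 measured 6.79 to 9.19 CPM in vehicle mice and 3.55 to 3.94 CPM in CDDO-Me mice (log2 fold change -1.03, SE 0.11, adjusted p = 1.4e-04). The translation inhibitor gene Pdcd4 measured 108 to 154 CPM in vehicle mice and 78.04 to 99.5 CPM in CDDO-Me mice (log2 fold change -0.73, SE 0.10, adjusted p = 0.0013), and the adhesion receptor gene Adgrf1 11.96 to 25.4 CPM in vehicle mice and 4.26 to 7.59 CPM in CDDO-Me mice (log2 fold change -1.59, SE 0.22, adjusted p = 0.0014). Uox, Upp2, and Pdcd4 were not called in the fit of all 30 libraries.

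Of 28 mitosis genes listed, 18 passed the filter on low counts, and 10 of these were called, all lower. As genes could pass the filter through the vehicle mice alone, the count describes the genes that passed and not the whole list. Over all 28 listed genes, whether or not they passed, the summed level was 37.6, 31.3, 31.5, 13.6, and 26.9 CPM in vehicle mice 1 to 5 and 7.79, 10.4, 12.5, 10.4, and 11.5 CPM in CDDO-Me mice 1 to 5. Every treated mouse was below vehicle mouse 4, the lowest of its group. Without CDDO-Me mouse 5 and vehicle mouse 2, 8 mitosis genes were called. The calls were 3 when a gene needed 10 counts in every library, and 6 with the replicate number as a block. Top2a (ENSMUSG00000020914.17, chromosome 11, 98992943 to 99024189), the DNA topoisomerase of dividing cells, measured 2.79, 2.61, 3.06, 0.996, and 2.32 CPM in vehicle mice 1 to 5 and 0.340, 0.609, 0.849, 0.535, and 0.595 CPM in CDDO-Me mice 1 to 5. For Top2a, the log2 fold change was -1.99 (SE 0.31, adjusted p = 0.0028). Ccna2, cyclin A2, measured 0.755 to 1.27 CPM in vehicle mice and 0.306 to 0.446 CPM in CDDO-Me mice (log2 fold change -1.60, SE 0.21, adjusted p = 9.3e-04). Cdc20, an activator of the anaphase-promoting complex, measured 0.362 to 1.61 CPM in vehicle mice and 0.0320 to 0.268 CPM in CDDO-Me mice (log2 fold change -2.59, SE 0.44, adjusted p = 0.0055). Its lowest treated level is under the 0.113 CPM that 3 counts give in the shallowest CDDO-Me library. The mitotic kinesin gene Kif20a measured 1.09 to 2.19 CPM in vehicle mice and 0.481 to 0.863 CPM in CDDO-Me mice (log2 fold change -1.28, SE 0.24, adjusted p = 0.0088). Cdk1 was not called (log2 fold change -0.79, SE 0.32, adjusted p = 0.23). Of 27 G1/S and DNA replication genes 3 were called, all lower, namely Mcm5 (log2 fold change -1.16, SE 0.22, adjusted p = 0.011), Rrm2 (log2 fold change -0.84, SE 0.19, adjusted p = 0.028), and Mcm3 (log2 fold change -0.58, SE 0.14, adjusted p = 0.037). Those 3 were 11.1% of the list, against 2.75% of all genes tested. Rrm2 was not called without CDDO-Me mouse 1, 3 or 5 or vehicle mouse 1, 3 or 5 (adjusted p 0.050 to 0.087), and Mcm3 without CDDO-Me mouse 1, 2, 3 or 4 or vehicle mouse 1, 2 or 3 (adjusted p 0.058 to 0.097), and 1 of the 3 was called without any one of CDDO-Me mice 1 and 3 and vehicle mice 1 and 3. The cell cycle inhibitor gene Cdkn1a measured 0.936 to 5.73 CPM in vehicle mice and 0.605 to 3.51 CPM in CDDO-Me mice (log2 fold change -0.72, SE 0.55, adjusted p = 0.57). In the fit of all 30 libraries 3 mitosis genes and 0 G1/S genes were called by edgeR, and Ccna2 was the one named here that was called. In whole liver, fewer dividing cells and less RNA per dividing cell cannot be told apart, and the same holds for each marker of another cell type.

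Some interferon-stimulated genes were lower. Of 30 genes of interferon response and antigen presentation tested, 5 were called (16.7%, against 2.75% of all genes tested), all lower, with a median of -0.29. Ifit3 measured 9.39, 7.57, 8.50, 6.37, and 7.68 CPM in vehicle mice 1 to 5 and 4.39, 5.99, 4.65, 5.26, and 4.79 CPM in CDDO-Me mice 1 to 5. Ifit3 had a fold change of -0.65 on the log2 scale (SE 0.12, adjusted p = 0.0099). Usp18, whose product restrains interferon signalling, measured 6.17 to 11.1 CPM in vehicle mice and 4.04 to 5.32 CPM in CDDO-Me mice (log2 fold change -0.78, SE 0.16, adjusted p = 0.013). The antiviral gene Rsad2 measured 6.52 to 10.8 CPM in vehicle mice and 3.71 to 5.84 CPM in CDDO-Me mice (log2 fold change -0.78, SE 0.16, adjusted p = 0.016). Isg15 (log2 fold change -0.57, SE 0.13, adjusted p = 0.026) was not called without CDDO-Me mouse 3 or 4 or vehicle mouse 1, 4 or 5 (adjusted p 0.051 to 0.062), and Ifit1 (log2 fold change -0.66, SE 0.15, adjusted p = 0.031) was not called without CDDO-Me mouse 1, 3, 4 or 5 or vehicle mouse 1, 3 or 5 (adjusted p 0.055 to 0.090). The number called was 3 without any one of CDDO-Me mice 3 and 4 and vehicle mice 1 and 5, 8 without vehicle mouse 2, and 10 without CDDO-Me mouse 5 and vehicle mouse 2. DESeq2 called 8, and the fit of all 30 libraries called 2, Ifit3 and Ifit1. The Kupffer cell and macrophage markers, which mark one possible source of this signal, summed to 181 to 432 CPM in vehicle mice and 249.7 to 362 CPM in CDDO-Me mice. The lymphocyte and neutrophil markers summed to 10.1 to 13.4 CPM in vehicle mice and 8.53 to 13.6 CPM in CDDO-Me mice. Both ranges overlap, and their part in the result was not tested.

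Other responses to stress were not detected as called genes. Of all genes tested 2.75% were called, a share at which lists of this size would give few calls or none. An unadjusted p under 0.05 was found for 2327 of the 13697 genes. Of 32 proteasome subunits, 0 were called by edgeR or DESeq2. An unadjusted p under 0.05 was found for 2, and the list's median was -0.03. Psmd2, a subunit of the regulatory particle, had a log2 fold change of -0.07 with a 95% confidence interval of -0.21 to 0.07. Among 19 heat shock chaperones, 0 were called by edgeR and 1 lower by DESeq2, 3 had an unadjusted p under 0.05, and 1 was called lower without CDDO-Me mouse 2 or vehicle mouse 4. Hsp90ab1 measured 758 to 1032 CPM in vehicle mice and 690.1 to 887 CPM in CDDO-Me mice (log2 fold change -0.11, SE 0.11, adjusted p = 0.67). Among 29 genes of the unfolded protein response and ATF4, 0 were called by edgeR, 2 higher and 1 lower by DESeq2, and 6 had an unadjusted p under 0.05. Hspa5, the chaperone BiP, measured 1184 to 1813 CPM in vehicle mice and 862 to 1500.5 CPM in CDDO-Me mice (log2 fold change -0.25, SE 0.16, adjusted p = 0.48). Without vehicle mouse 2 or CDDO-Me mouse 5, 2 and 1 genes of that list were called higher. Hepatocyte transcription factors gave 0 calls by edgeR and 1 lower by DESeq2 among 23 (4 at an unadjusted p under 0.05), and 1 lower without CDDO-Me mouse 5 or vehicle mouse 4. Hnf4a had a log2 fold change of 0.04 (95% confidence interval -0.14 to 0.23).

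Clock genes gave 1 call of 20, where 2.75% of all genes tested were called (2 calls without CDDO-Me mouse 3 or vehicle mouse 4). This was Nampt, which makes a precursor of NAD and whose transcript cycles with the clock. Nampt measured 51.6, 46.3, 52.1, 51.9, and 46.9 CPM in vehicle mice 1 to 5 and 84.8, 88.9, 73.04, 82.9, and 91.7 CPM in CDDO-Me mice 1 to 5, with all treated mice above all vehicle mice. For Nampt, the log2 fold change was 0.76 (SE 0.07, adjusted p = 6.3e-05). The clock factor Arntl measured 11.8, 27.01, 9.26, 10.8, and 12.9 CPM in vehicle mice 1 to 5 and 17.9, 16.1, 13.9, 12.7, and 11.4 CPM in CDDO-Me mice 1 to 5, and vehicle mouse 2 was far above the other vehicle mice. The clock output gene Dbp measured 33.5, 12.3, 33.2, 64.2, and 28.3 CPM in vehicle mice 1 to 5 and 36.9, 26.95, 32.99, 40.1, and 38.7 CPM in CDDO-Me mice 1 to 5, with vehicle mouse 2 the lowest. Their log2 fold changes were 0.0043 (95% confidence interval -0.55 to 0.56) and 0.03 (95% confidence interval -0.64 to 0.70), and both changed sign with single mice left out. Among 26 genes of extracellular matrix and adhesion, Lama3 was lower and the integrin gene Itga6 higher (log2 fold change 0.82, SE 0.18, adjusted p = 0.02), the latter not called without CDDO-Me mouse 2 or vehicle mouse 3 (adjusted p 0.053 to 0.061). Calls were 7.69% of this list, against 2.75% of all genes tested. Without vehicle mouse 2, 2 genes of this list were called higher and 2 lower. Nampt and Itga6 were not called in the fit of all 30 libraries.

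**Figure D5:**
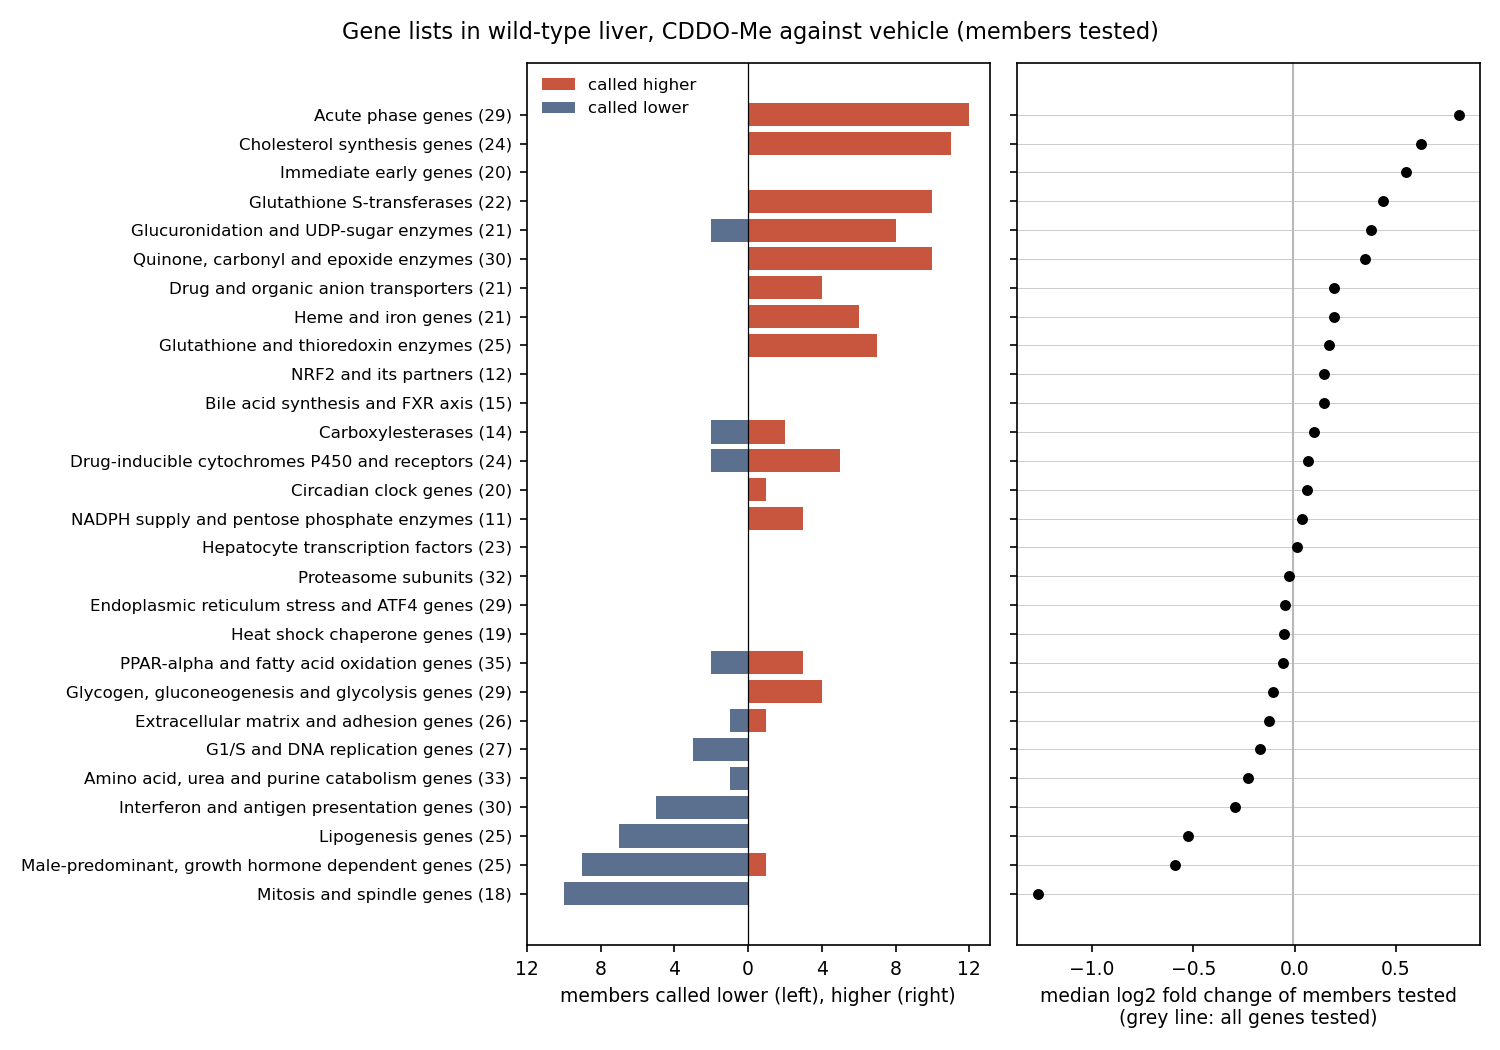
Left, the number of members of each of 28 gene lists called higher (red, to the right) or lower (blue, to the left), with the number tested in brackets. Right, the median log2 fold change of the members tested, with the median of all genes tested, -0.01, as a grey line. Acute phase and cholesterol synthesis genes have the highest medians and mitosis and male-predominant genes the lowest. The mitosis median covers the 18 of 28 genes that passed a filter the vehicle mice alone could satisfy, and 2.75% of all genes tested were called.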

How the data were processed

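Liver RNA of wild-type mice was sequenced by the authors with a stranded mRNA kit. They assessed reads with fastp without removing any, aligned them to mm10 with STAR 2.7.7, and deposited raw counts per gene as STAR reports them, in which reads with more than 1 position are left out. They used edgeR 3.36.0 with the date of sample isolation as a covariate. The dates are not in the labels, so no date term was used here. The 4 summary lines of the table were left out of library sizes. Symbols and positions came from GENCODE M21 (GRCm38) and were found for 55154 of 55335 genes.

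The 10 libraries were fitted with edgeR 4.0.16 (R 4.3.3) with filterByExpr, TMM factors, and the quasi-likelihood F-test with Benjamini-Hochberg adjustment over 13697 genes. Every adjusted p below comes from that test unless DESeq2 1.42.0 is named. Calls needed an adjusted p under 0.05 with a log2 fold change of at least 0.5 in size. SE is the log2 fold change divided by the root of F. CPM used TMM library sizes, and log2 CPM a prior count of 2. The floor for a gene without signal was 3 counts, for counting error only. Each mouse gave 1 library, and no 2 libraries agreed within sampling noise. Genes named were drawn from the most significant, the most changed, the called and most abundant members of each list, and a set of standard genes. Some genes that met this rule are not named. Names outside the rule are marked. The members and the gene lists were chosen with earlier results of these data known. Alternatives were other scaling, filters, DESeq2, a replicate block, 1 surrogate variable (sva 3.50.0), all 30 libraries, no fold threshold, and leaving out single mice.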

Additional observations from a re-analysis of the deposited data

Results flagged for a closer look

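Among 286 groups of 5 mice, 2 for each of 143 genes, 24 had 1 mouse far from the other 4 by Dixon's test, where chance gives about 1 in 20. Vehicle mouse 2 accounted for 6 of these and CDDO-Me mouse 5 for 5.

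In vehicle mouse 2, Nr1i3 was at 93.7 CPM (others 174.6 to 205.5), Pdcd4 at 108.4 (others 142.1 to 153.7), Arntl at 27.0 (others 9.26 to 12.9), Acot4 at 44.4 (others 31.6 to 34.7), Lbp at 89.7 (others 83.3 to 84.0), and Gsta1 at 3.65 (others 1.57 to 1.84). In CDDO-Me mouse 5, Nqo1 was at 105.1 CPM (others 46.8 to 54.8), Hmox1 at 21.2 (others 14.5 to 15.3), Tat at 2903 (others 1302 to 1596), Cdkn1a at 3.51 (others 0.605 to 1.38), and Ccna2 at 0.446 (others 0.306 to 0.340). Both mice are those set apart by principal component 2.

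Vehicle mouse 4 had the acute phase genes Saa1 at 1373 CPM (others 97.3 to 327.7) and Lcn2 at 37.9 (others 2.45 to 6.34), and Cyp7a1 at 171.9 (others 116.5 to 131.2). Vehicle mouse 1 had Gclc at 434.04 CPM (others 356.5 to 372.1), Akr1b8 at 2.27 (others 1.64 to 1.74), Ugt2b5 at 1005 (others 789 to 839), and Abcc3 at 415.2 (others 312.9 to 335.3), each above its group. Vehicle mouse 3 had Hmox1 at 16.4 CPM (others 13.3 to 14.1), Aldh2 at 1554.5 (others 1720 to 1776.5), and Ces1h at 0.0255, which is 1 count against 0 in the others. Single flags fell on Mlxipl in vehicle mouse 5 at 472.2 CPM (others 394.6 to 412.9), Gstm2 in CDDO-Me mouse 1 at 290.9 (others 154.9 to 190.2), and Uox in CDDO-Me mouse 2 at 1190.5 (others 1412 to 1470). No cause of these values was tested.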

How the results depend on the processing

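Against 377 calls (227 higher and 150 lower), the fit of all 30 libraries gave 147 (104 higher and 43 lower), and the absence of a fold threshold gave 580, with 363 higher. DESeq2 called 233 genes lower. Leaving out single mice gave 265 to 493 calls, with 169 to 274 higher and 96 to 219 lower, the fewest lower calls without vehicle mouse 3 and the most calls in all without vehicle mouse 2. Without CDDO-Me mouse 5 and vehicle mouse 2, a choice made after seeing the data, 268 genes were called lower. The cause was not tested. With the replicate number as a block, 299 genes were called, of which 275 were shared with the unblocked fit. The numbers were not taken to pair the mice. Mice of the same number had residual correlations of -0.121 to 0.190. Of the 5 CDDO-Me mice, 1 correlated best with the vehicle mouse of its own number. The fold changes of Arntl and Dbp, which were not called, changed sign. Arntl was at -0.0015 with upper-quartile factors, -0.0106 with 1 surrogate variable, and -0.1215 to 0.3641 without single mice. Dbp was at -0.182 to 0.3894 without single mice and -0.2192 without both of those above. Of 110 called genes named, 0 reversed, 18 lost the call without some single mouse, and 56 under another setting.

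The shallowest library, at 23667068 counts, sets the least level seen, at 0.129 CPM for 3 counts in vehicle mice. Near-identical genes are measured in part, and isolation dates were not analysed here.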
